A study of Mus musculus with 24 samples.

Results

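The transcriptome of the MC38-COSMC KO line was compared with that of its vector control, MC38-MOCK#1, in cultured cells. MC38 is a colon carcinoma cell line from C57BL/6 mice, and the series holds 24 mRNA libraries from 8 MC38 lines, 3 libraries per line. The 6 libraries described here are the 3 of MC38-COSMC KO and the 3 of MC38-MOCK#1, each line harvested at passages 4, 5 and 6. Of 52636 genes in the table, 22172 had at most 4 values of 0 among these 6 libraries and were tested. MC38-COSMC KO cells had received a CRISPR-Cas9 plasmid with a guide against C1galt1c1 (COSMC) and were sorted in bulk for high binding of the Tn-reactive lectin HPA. MC38-MOCK#1 cells had received the CRISPR-Cas9 construct without a guide. Both lines were grown with puromycin and were populations rather than single clones as far as the sources used here state. The 3 libraries of a line are harvests of 1 line at successive passages, so the p-values measure the spread between harvests of these 2 lines, and the loss of COSMC cannot be told apart from any other difference that separates the lines. The other lines include untransfected MC38-WT (grown without puromycin), MC38-CMAS KO, MC38-DKO (knockout of both CMAS and COSMC) and the CRISPR-dCas-VPR vector control MC38-MOCK#2. The lines MC38-FUT4 and MC38-FUT9 overexpress those fucosyltransferase genes through CRISPR-dCas-VPR. All serve as a background, and MC38-COSMC KO was also tested against MC38-WT and MC38-MOCK#2. MC38-CMAS KO and MC38-DKO were harvested at passages 4 to 6, MC38-MOCK#2 and MC38-FUT9 at 6 to 8, MC38-FUT4 at 7 or 8 and MC38-WT at 7 to 9. Passage therefore differs between MC38-COSMC KO and both MC38-WT and MC38-MOCK#2.

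Mucin-type O-glycosylation starts in the Golgi when a GalNAc-transferase attaches N-acetylgalactosamine to a serine or threonine, which gives the Tn antigen. T-synthase, encoded by C1galt1, then adds galactose, and sialyltransferases can cap the product. T-synthase folds only with the help of COSMC, an endoplasmic reticulum chaperone encoded by the X-linked gene C1galt1c1, so cells without COSMC carry short, Tn-ending O-glycans on mucins and many other surface proteins.

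The values are the authors' normalised counts, and a fold change is a difference of group means on the log2(normalised count + 1) scale, MC38-COSMC KO minus MC38-MOCK#1, with its standard error (SE). Such a fold change understates the change of genes with low values. A gene is said to be increased or suppressed, or to have risen or fallen, when its Benjamini-Hochberg adjusted p from limma was below 0.05. C1galt1c1 had 242, 220 and 251 normalised counts in MC38-MOCK#1 and 145, 163 and 124 in MC38-COSMC KO (log2 fold change -0.73, SE 0.13, adjusted p = 0.0128). The lines did not overlap, yet the transcript was far from absent in the knockout, and gene-level counts do not show whether it still encodes the chaperone. C1galt1, its client, had 312, 324 and 277 against 336, 344 and 302 and did not pass (adjusted p = 0.544).

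Of the 22172 genes, 2563 (11.6%) passed, 1367 (6.17%) higher and 1196 (5.39%) lower in MC38-COSMC KO. All 2563 had groups that did not overlap, as had 6292 genes (28.4%) in all. Most differences were small, with a median log2 fold change of 0.57 among the genes that rose and -0.60 among those that fell. A change of over 2-fold was seen in 828 of them (409 higher, 419 lower), and one of over 8-fold in 80 that rose and 17 that fell, so the extreme end of the distribution held mostly increased genes. When every library was rescaled to the same total, 1125 genes rose and 1747 fell, which moved the share of increased genes from 53.3% to 39.2%, as the median gene shifted by -0.06. With the samples left out in turn, between 667 and 2119 genes passed. The count was 667 without MC38-COSMC KO 2, 690 without MC38-MOCK#1 2, 1035 without MC38-COSMC KO 3, 1131 without MC38-MOCK#1 1 and 1342 without MC38-COSMC KO 1.

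The libraries were checked against markers of other cells. Summed over the gene list of each cell type, T, B and NK cell markers reached at most 5 normalised counts and endothelial markers at most 14 in any of the 6 libraries. Markers of colon epithelium, the labelled origin of the tumour, summed to 2 to 11, with 7 of the 10 genes (Epcam and Cdx2 among them) at 3 or below in every library, so the cells lacked the defining transcripts of that epithelium in both lines. Totals of normalised counts were 11049033 to 11204777 in MC38-MOCK#1 and 11574538 to 11613273 in MC38-COSMC KO, and the deposited values do not state how many reads lay behind each library.

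The genes with the largest increase among those with a mean of at least 100 normalised counts in the higher line were led by Timp3, which encodes an inhibitor of matrix metalloproteases that binds to the extracellular matrix. Timp3 had 5, 4 and 4 normalised counts in MC38-MOCK#1 and 761, 943 and 877 in MC38-COSMC KO (log2 fold change 7.34, SE 0.16, adjusted p = 3.3e-06). In MC38-WT it ranged from 519 to 697, whereas MC38-DKO, which also carries the COSMC knockout, was as low as MC38-MOCK#1, at 1 to 5. Col6a3, a chain of the microfibrillar collagen VI, had 108, 96 and 110 against 3829, 4292 and 3765 (5.23, SE 0.083, adjusted p = 6.24e-07), with MC38-WT (2311 to 4034) close to the knockout and MC38-MOCK#2 (128 to 263) and MC38-DKO (121 to 228) nearer to MC38-MOCK#1. The water channel gene Aqp1 had 16, 5 and 19 against 1025, 800 and 730 (6.06, SE 0.43, adjusted p = 0.000663), and here the knockout exceeded all 18 libraries of the other lines, which reached 574. Sorcs2, a sorting receptor of the VPS10 family, had 3, 2 and 0 against 156, 202 and 205 and was likewise above every other library (at most 53). The X-linked germ cell gene Pet2 had 7, 1 and 1 against 374, 323 and 299 (6.71, SE 0.53, adjusted p = 0.00094), also above the other 18 (at most 232). For Aqp1, Sorcs2 and Pet2, MC38-DKO was again as low as MC38-MOCK#1, at 19 to 20, 0 to 1 and 0. Grem1, a secreted antagonist of bone morphogenetic proteins (BMPs), had 19, 13 and 14 against 544, 617 and 761 (5.30, SE 0.19, adjusted p = 3.93e-05). In this case MC38-WT was higher still, at 1161 to 1766. The remaining genes of this group, all increased, were Six3os1, Magea10, Colec12 (a scavenger receptor), Stxbp2 (a partner of syntaxins in exocytosis), Ptchd1, Arhgap30 (a GTPase-activating protein), Trpa1 (a cation channel), Clmp (an adhesion molecule of cell junctions) and Col6a1. For Six3os1, an antisense transcript beside Six3, it is not stated whether strand was used in the counting, and MC38-MOCK#1 was at 0 in each library while MC38-COSMC KO had 90, 102 and 128, which is at least 35.6-fold higher against a floor of 3 normalised counts per library.

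The largest decrease by the same rule was in Ripk3, the kinase that triggers necroptosis. Ripk3 had 350, 378 and 379 normalised counts in MC38-MOCK#1 and 47, 40 and 19 in MC38-COSMC KO (-3.44, SE 0.31, adjusted p = 0.00119). The other lines were split. MC38-WT (60 to 80), MC38-CMAS KO (55 to 64) and MC38-FUT9 (22 to 42) were near the knockout. MC38-MOCK#2 (204 to 243), MC38-DKO (184 to 211) and MC38-FUT4 (413 to 480) were well above it. Igfbp5, which binds insulin-like growth factors, had 88, 103 and 189 against 19, 14 and 5 (-3.31, SE 0.49, adjusted p = 0.00738). All 3 MC38-MOCK#1 values lay above the 18 libraries of the other lines, which reached 64. Ass1, an enzyme of arginine synthesis, had 442, 338 and 234 against 35, 36 and 52 (-2.99, SE 0.26, adjusted p = 0.00111). MC38-WT, at 27 to 41, was near the knockout, whereas MC38-DKO, at 400 to 510, was as high as MC38-MOCK#1. Ptn, which encodes the growth factor pleiotrophin, had 396, 570 and 863 against 137, 102 and 66 (-2.56, SE 0.34, adjusted p = 0.00468). Unlike the preceding genes, Ptn was also suppressed relative to MC38-WT, which had 377 to 515 (adjusted p = 0.0162 for MC38-COSMC KO against MC38-WT). The other suppressed genes of this group were Ovol2 and Wfdc2 (epithelial genes), Fndc3c1, Igf2bp3 (an RNA-binding protein), Olfml3 and a set of interferon-stimulated genes (Ifi211, Ifi204, Oas3, Cmpk2, Usp18 and Lgals9).

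**Figure D1:**
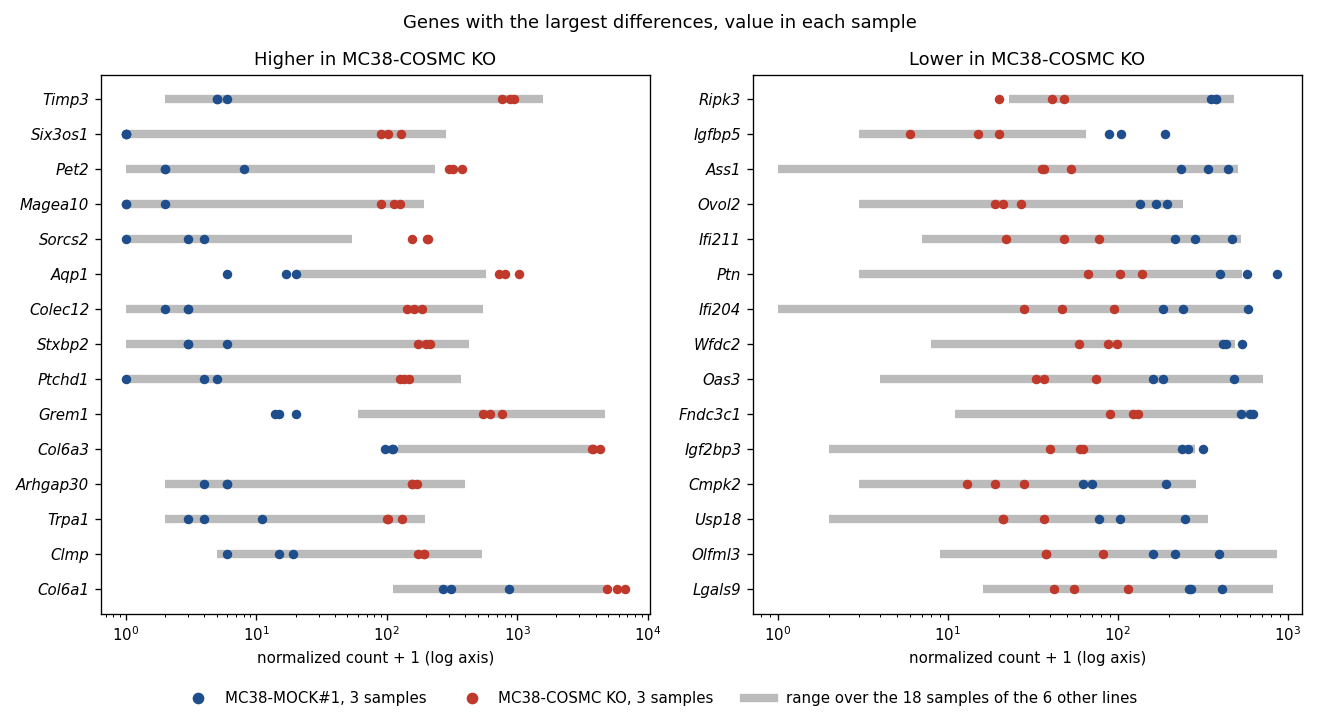
Normalised count + 1 (log axis) of the 15 genes with the largest increase and the 15 with the largest decrease in each of the 3 MC38-MOCK#1 and 3 MC38-COSMC KO libraries, where each point is a library and the grey bar spans the 18 libraries of the other 6 lines. Timp3 sits at 4 to 5 normalised counts in MC38-MOCK#1 and at 761 to 943 in MC38-COSMC KO. The genes were picked among those whose MC38-MOCK#1 and MC38-COSMC KO values do not overlap, so the gap in each row follows from the selection.

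Genes were then grouped into 25 lists of pathway members or functions, and each was described by how many tested members passed in each direction. These counts are set beside the 6.17% higher and 5.39% lower of all genes and a median log2 fold change of 0 over all tested genes. Passing was more common among the 14384 tested protein-coding genes, of which 1221 rose and 1122 fell. The shares of all genes are therefore a low background for lists of protein-coding genes. In all, 2343 of the 14384 protein-coding genes passed. The lists of O-glycan core and GALNT enzymes (15.8%), mucins and other carriers (16.7%), the BMP and TGF-beta pathway (16.0%) and the cell cycle (16.0%) passed at about that rate. In the O-glycan core and GALNT list, 0 of 19 rose and 3 fell (median -0.19, and 0.03 without MC38-MOCK#1 2). The suppressed members were the target itself, Gcnt4, a core branching enzyme (65, 70 and 80 against 26, 31 and 31), and B3gnt3, which extends core 1 (452, 403 and 480 against 252, 205 and 197; -1.03, SE 0.12, adjusted p = 0.00284). None of the 3 was a GALNT gene, and 4 of the 19 had an unadjusted p under 0.05, all lower. Of all 22172 genes, 5770 had such a p, which is the background for every count at this threshold against MC38-MOCK#1. For the comparisons with other lines that number is not given. Of 17 sialic acid enzymes and sialyltransferases, 2 rose and 3 fell (median 0.01), with no common direction. With the same total 0 rose, and 0 rose in each fit without a single sample other than MC38-MOCK#1 3, while 2 to 3 fell. St3gal6, an alpha2,3-sialyltransferase, had the largest change, from 230, 257 and 217 to 83, 78 and 79 (-1.54, SE 0.11, adjusted p = 0.000677). St6galnac6 and St3gal5 also fell, by 0.53 and 0.49 on the log2 scale, whereas Casd1, which O-acetylates sialic acid, and St3gal4 were the 2 that rose, by 0.51 and 0.33.

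Galectins are secreted lectins that bind galactose-ending glycans. Lgals3 (galectin-3) had 2472, 2328 and 2138 normalised counts in MC38-MOCK#1 and 10744, 9563 and 9691 in MC38-COSMC KO (2.11, SE 0.073, adjusted p = 3.41e-05). Lgals1 (galectin-1) had 10310, 9688 and 10411 against 16540, 15084 and 16166 (0.65, SE 0.056, adjusted p = 0.00111). Both were abundant transcripts that were tightly grouped within each line. Lgals9 (galectin-9) went the other way, from 262, 270 and 408 to 114, 54 and 41 (-2.26, SE 0.37, adjusted p = 0.0103). Of 8 galectins tested, 2 rose and 1 fell, and without single samples 2 to 3 rose and at most 1 fell. Of 18 mucins and other O-glycan carriers, 0 rose and 3 fell by limma (median -0.0015), with 4 higher and 4 lower at an unadjusted p under 0.05. Without MC38-MOCK#1 3, 3 rose and 3 fell, and in the fit over all 8 lines 2 rose and 4 fell. The 3 that fell in the main comparison were Pdpn, Msln and Podxl. Pdpn (podoplanin) had 67, 76 and 53 against 9, 8 and 14. Msln (mesothelin) had 3837, 2953 and 2527 against 913, 1041 and 1208 (-1.55, SE 0.16, adjusted p = 0.00216). Podxl (podocalyxin) had 418, 495 and 474 against 207, 249 and 243. In all 3 the MC38-COSMC KO libraries were below every MC38-MOCK#1 library, and MC38-WT had values like those of the knockout (6 to 24, 620 to 816 and 221 to 265).

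Genes of the extracellular matrix changed in both directions. Of 27 collagen genes, 6 rose and 4 fell (median 0.10; 2 to 8 rose and 2 to 3 fell without single samples, and 2 rose without MC38-COSMC KO 3 or MC38-MOCK#1 2). The 3 chains of collagen VI rose together. Col6a1 had 267, 311 and 858 against 6724, 5817 and 4893 (3.79, SE 0.40, adjusted p = 0.00227), and Col6a2 had 171, 219 and 554 against 2333, 1966 and 1445 (2.77, SE 0.41, adjusted p = 0.00753). MC38-MOCK#1 3 was the highest of its group for both chains, while Col6a3 showed no such spread. Col5a1, Col16a1 and Col1a2 rose by 0.65, 0.83 and 1.23 on the log2 scale. The suppressed collagens belonged to other types. Col7a1, which forms the anchoring fibrils of epithelia, had 1420, 1130 and 850 against 355, 435 and 462 (-1.42, SE 0.19, adjusted p = 0.0048), and Col4a6, a basement membrane chain, had 101, 89 and 94 against 19, 24 and 13. Col8a1 and Col11a1 fell by 2.02 and 0.97.

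Among 54 matrix glycoproteins and proteoglycans, 10 rose and 5 fell (median 0.22; 5 to 13 rose and 3 to 5 fell without single samples). Fbln2 (fibulin-2) had 8, 15 and 16 against 124, 113 and 127 (3.18, SE 0.28, adjusted p = 0.00111), and Sparc, a collagen-binding glycoprotein, had 364, 412 and 531 against 1425, 1301 and 1355 (1.66, SE 0.13, adjusted p = 0.00094). The syndecans Sdc3 and Sdc2 rose by 2.76 and 0.85 whereas Sdc4 fell by 0.70, so members of 1 proteoglycan family differed in sign. Matn2 and Thbs2 rose as well, by 1.84 and 1.73. Ltbp1, which binds latent TGF-beta, had 1949, 1521 and 1440 against 661, 747 and 707 (-1.20, SE 0.12, adjusted p = 0.00163), and Tinagl1, a basement membrane protein, had 1747, 1493 and 1538 against 760, 751 and 715. Of 51 matrix proteases and inhibitors, 11 rose and 7 fell (median 0; 6 to 10 rose and 1 to 3 fell without single samples). Besides Timp3, Adamtsl4 had 151, 155 and 146 against 643, 650 and 630 (2.08, SE 0.071, adjusted p = 3.41e-05). Mmp14, a membrane-anchored collagenase, had 747, 746 and 893 against 1394, 1226 and 1140, and Plaur, the urokinase receptor, had 1424, 1228 and 1258 against 891, 905 and 843. The gelatinase gene Mmp2 was at 0 in all MC38-MOCK#1 libraries and had only 16, 5 and 4 in MC38-COSMC KO. Fibroblast markers, which share genes with these lists, summed to 717 to 1037 in MC38-MOCK#1 and 1086 to 1334 in MC38-COSMC KO, with 2 of 8 tested higher (Pdgfrb and Col1a2), and with Lum and Thy1 at 0 in all 6 libraries.

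Of 19 integrin subunits, 2 rose and 5 fell (median -0.16; 1 to 3 rose and 0 to 4 fell without single samples). Itgb8, whose product with the alpha V chain binds latent TGF-beta, had 0, 1 and 2 against 79, 50 and 38 (4.90, SE 0.50, adjusted p = 0.00195). The laminin receptor subunits Itga6 and Itga3 fell by 0.50 and 0.89, and Itga7 fell from 94, 113 and 177 to 56, 48 and 56. Itga6 had 1280, 1431 and 1056 in MC38-MOCK#1 and 929, 928 and 792 in MC38-COSMC KO, the smallest gap among the called subunits.

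Mesenchymal genes and regulators of epithelial-mesenchymal transition (EMT) had the highest share of passing genes of any list, 44.8% of 29, with 9 higher and 4 lower. Without single samples 9 to 12 passed. The homeobox gene Prrx1 had 163, 150 and 147 normalised counts in MC38-MOCK#1 and 961, 879 and 939 in MC38-COSMC KO (2.59, SE 0.077, adjusted p = 2.06e-05). Gas1, a surface protein that modulates hedgehog signalling, had 221, 188 and 374 against 1735, 1375 and 1539 (2.62, SE 0.24, adjusted p = 0.00132). In both genes the line means differed several-fold, with the knockout libraries close to each other. Snai1 had 228, 171 and 188 against 517, 545 and 591 (1.50, SE 0.12, adjusted p = 0.00094) and Zeb1 had 109, 117 and 143 against 348, 286 and 297 (1.33, SE 0.13, adjusted p = 0.00194). Both encode repressors of E-cadherin, as does Snai2, which fell from 87, 97 and 153 to 29, 40 and 40 (-1.57, SE 0.25, adjusted p = 0.0101). Pdgfrb, Sox9, S100a4, Cav1 and Tcf4 also rose, by 2.35, 2.06, 1.71, 1.23 and 0.53, whereas Twist2, Cdh2 (N-cadherin) and Cald1 fell by 0.59, 0.51 and 0.34. The list median was 0.11, since the members that did not pass lay on both sides of 0.

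In the list of epithelial and intestinal genes, 0 of 33 rose and 7 fell (median -0.081, or -0.18 when 5 genes under the floor in both lines are left out), and 3 were higher and 9 lower at an unadjusted p under 0.05. Shroom3, which shapes the apical side of epithelial cells, had 56, 69 and 112 against 7, 5 and 1 (-4.07, SE 0.55, adjusted p = 0.00526). Ovol2, a transcription factor that maintains epithelial identity, had 194, 167 and 134 against 26, 20 and 18 (-2.89, SE 0.21, adjusted p = 0.000747). Wfdc2, a secreted protease inhibitor of glandular epithelia, had 536, 434 and 413 against 86, 98 and 58 (-2.52, SE 0.20, adjusted p = 0.000961). For these 3 genes the MC38-MOCK#1 libraries were the high ones, MC38-WT lay at 8 to 13, 11 to 24 and 62 to 86, and MC38-DKO resembled MC38-MOCK#1 for Ovol2 (159 to 239) and Wfdc2 (453 to 488). The transcription factor Elf3 fell from 117, 122 and 138 to 57, 50 and 55, the junction genes Jup and Tjp1 fell by 1.16 and 0.22, and Ocln was at 3, 3 and 1 against 0 in each knockout library. Without single samples 4 to 7 fell. Against MC38-MOCK#2, where 10.9% of all genes passed, the direction differed, with 4 of 33 higher and 2 lower (median 0.33).

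**Figure D2:**
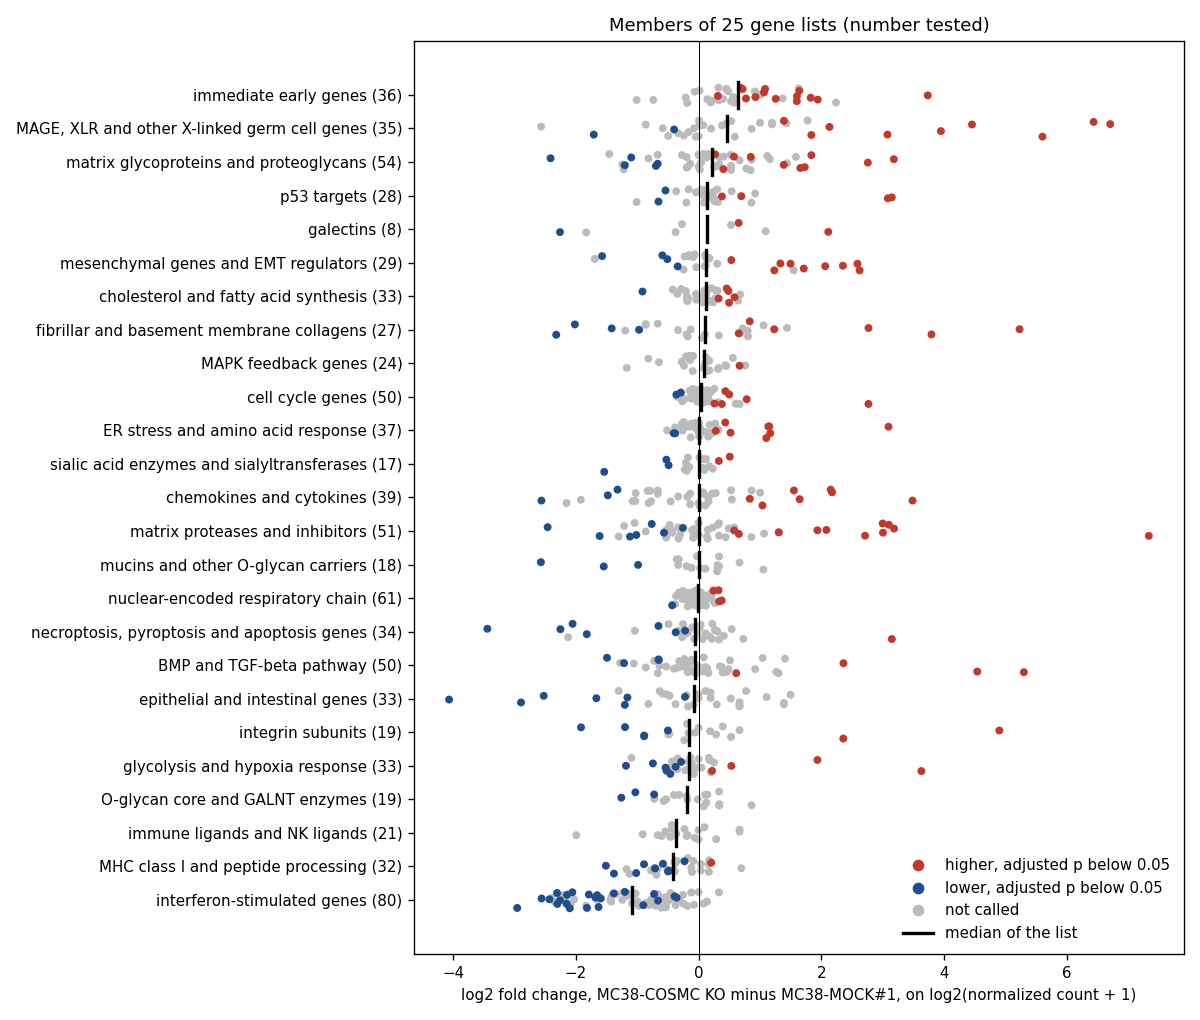
Log2 fold change (MC38-COSMC KO minus MC38-MOCK#1, on the log2(normalised count + 1) scale) of each tested member of the 25 gene lists, with the number tested beside each list name; each point is a gene, the colours mark members that rose, fell or did not pass at an adjusted p of 0.05, and the black bar is the list median. The interferon-stimulated genes lie almost wholly below 0 (76 of 80) and the immediate early genes mostly above it (31 of 36).

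Within the BMP and TGF-beta pathway, 4 of 50 rose and 4 fell (16.0% passing, median -0.066), about the rate of all protein-coding genes (2343 of 14384). The ligand Bmp2 had 35, 60 and 69 against 19, 14 and 22 (-1.49, SE 0.31, adjusted p = 0.0252). Among proteins that bind such ligands, Grem1 rose as given above and Vasn, which traps TGF-beta, had 65, 108 and 177 against 554, 582 and 534 (2.36, SE 0.31, adjusted p = 0.00497). Downstream, the signal transducer Smad1 had 323, 291 and 331 against 449, 493 and 504 (0.61, SE 0.085, adjusted p = 0.00571), and Skil, a repressor of SMAD activity, had 776, 737 and 665 against 474, 493 and 421 (-0.65, SE 0.09, adjusted p = 0.00571). The ligand Bmp5 rose and the modulator Bmper and the protease Bmp1 fell, by 1.22 and 0.65. Without single samples 2 to 7 rose and 1 to 5 fell.

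Immediate early genes are transcribed within minutes of growth factor or stress signals. Of 36, 14 rose and 0 fell by limma (17 and 0 at an unadjusted p under 0.05; 38.9% passing, median 0.64, with 31 above 0). Sgk1, a serum-induced kinase, had 2800, 2266 and 2645 normalised counts in MC38-MOCK#1 and 9174, 11092 and 7363 in MC38-COSMC KO (1.83, SE 0.15, adjusted p = 0.00097). Jun, a subunit of AP-1, had 3657, 1854 and 3446 against 7545, 14549 and 5952 (1.60, SE 0.37, adjusted p = 0.0342). The spread in Jun was wide, with MC38-COSMC KO 2 the highest and MC38-MOCK#1 2 the lowest library. Rgs2, a brake on G protein signalling, had 6, 4 and 23 against 118, 134 and 122 (3.73, SE 0.54, adjusted p = 0.00687), and Myc had 1230, 1197 and 1260 against 1925, 2192 and 3018 (0.93, SE 0.15, adjusted p = 0.0103). Trib1, Klf2, Phlda1, Zfp36l1, Klf4, Zfp36, Ier5, Nr4a1, Fosl2 and Mcl1 rose by 0.31 to 1.94. MC38-COSMC KO 2 was the highest knockout library for 9 of the 14, and MC38-MOCK#1 2 the lowest control library for 13. The number that rose was 1 without MC38-COSMC KO 2, 2 without MC38-MOCK#1 1, 3 without MC38-COSMC KO 1, 4 without MC38-MOCK#1 2, 6 without MC38-MOCK#1 3 and 7 without MC38-COSMC KO 3. Nuclear RNAs used as a sign of RNA quality summed to 12426, 10453 and 8529 in MC38-MOCK#1 and 12309, 19261 and 18577 in MC38-COSMC KO, led by Malat1 (3745, 2889 and 2822 against 5168, 9923 and 7180; adjusted p = 0.0178), and their part in this result was not tested. Against MC38-WT, where 0.581% of all genes passed, 0 of the 36 passed by limma, with 1 at an unadjusted p under 0.05. Against MC38-MOCK#2, where 10.9% of all genes passed, 5 of 36 rose and 0 fell (median 0.24). Of 24 MAPK feedback genes, which report ERK activity, only Dusp6 passed (304, 293 and 318 against 525, 578 and 375; 0.67, SE 0.16, adjusted p = 0.0353), a call that was lost in 5 of the 6 fits without a single sample. In this list 4 were higher and 4 lower at an unadjusted p under 0.05.

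Interferon-stimulated genes encode antiviral effectors and sensors that are induced through the transcription factor ISGF3. Of 80 tested, 0 rose and 23 (28.8%) fell by limma (1 and 46 at an unadjusted p under 0.05), and 76 had a fold change below 0 (median -1.09). Oas3, a synthase of the 2-5A signal that activates RNase L, had 182, 159 and 483 in MC38-MOCK#1 and 73, 36 and 32 in MC38-COSMC KO (-2.43, SE 0.47, adjusted p = 0.0193). Ifi204, a DNA sensor of the IFI200 family, had 182, 239 and 582 against 94, 46 and 27 (-2.56, SE 0.54, adjusted p = 0.0251). Usp18, which removes ISG15 from proteins, had 76, 102 and 246 against 36, 20 and 20 (-2.30, SE 0.45, adjusted p = 0.0194). MC38-MOCK#1 3 was the highest library for 21 of the 23 genes and MC38-COSMC KO 1 the highest knockout library for 21. Apobec3, a DNA deaminase, was less dependent on a single harvest, at 297, 293 and 412 against 151, 118 and 112 (-1.38, SE 0.17, adjusted p = 0.00389). Irf1, a transcription factor of the pathway, had nearly equal values in the 3 controls, 747, 761 and 761 against 515, 444 and 477 (-0.66, SE 0.072, adjusted p = 0.00234). The RNA sensor Ifih1 (MDA5), Ifi27, Ifitm1, Cmpk2, Parp14, Sp100, Gbp3 and Samhd1 also fell, by 0.39 to 2.31. Oas1a, Oas1g and Oas1c, Ifi204 and Ifi205, and Trim30a and Trim34a belong to families of near-identical copies, so the split of reads among them is uncertain.

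**Figure D3:**
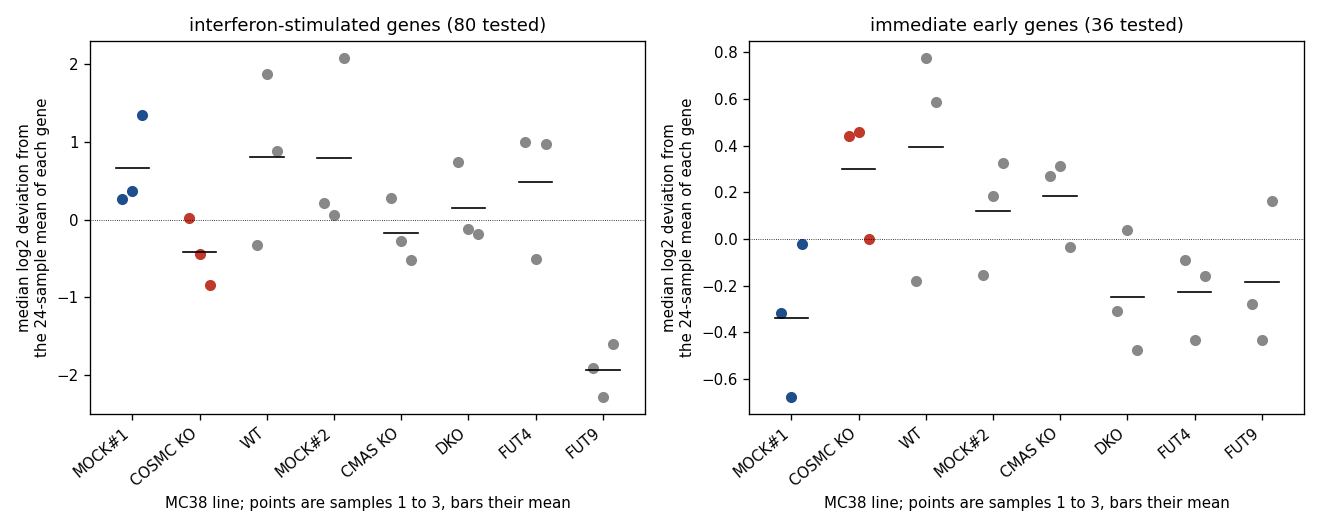
Level of the 80 interferon-stimulated genes and of the 36 immediate early genes in each of the 24 libraries, as the median over the genes of the log2 deviation from the gene's mean over all libraries; points are samples 1 to 3 of each line and bars their mean. The interferon-stimulated level is 0.26, 0.37 and 1.35 in MC38-MOCK#1 and 0.02, -0.44 and -0.84 in MC38-COSMC KO, and it spans -0.32 to 1.87 within MC38-WT.

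The level of the interferon-stimulated list, taken as the median log2 deviation of its genes, differed between harvests of most lines. It was 0.26, 0.37 and 1.35 in MC38-MOCK#1, 0.02, -0.44 and -0.84 in MC38-COSMC KO, and -0.32, 1.87 and 0.88 in MC38-WT. MC38-MOCK#1 and MC38-COSMC KO did not overlap, but MC38-WT reached into the range of both. The number of members that fell was 1 without MC38-COSMC KO 2, 2 without MC38-COSMC KO 3 or MC38-MOCK#1 2, 4 without MC38-MOCK#1 1, 7 without MC38-MOCK#1 3 and 10 without MC38-COSMC KO 1, while the median stayed between -1.36 and -0.69. It was 12 in a fit over all 8 lines and 4 without a mean-variance trend. Against MC38-WT, where 0.581% of all genes passed, the list had a median of -1.03 and 0 of 81 passed by limma, with 35 at an unadjusted p under 0.05. Against MC38-MOCK#2, a comparison in which 10.9% of all genes passed (5.97% higher, 4.97% lower), 14 of 78 fell, 0 rose and the median was -1.27.

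Promoters of these genes were searched on either strand for GAAA, any 2 bases and a second GAAA (TTTC, 2 bases and TTTC on the other strand), the core letters of the element that ISGF3 binds, in windows from 250 bases before to 50 bases after each RefSeq gene start. A match was present for 11 of 19 suppressed list members with a window (57.9%) and for 26 of 41 list members that were tested and did not pass (63.4%), against 1079 of 27025 genes (3.99%) in all. Among all suppressed genes 5.46% had a match and among all increased genes 3.02%. Both shares within the list exceeded that of all genes, and the suppressed members did not hold the motif more often than the others. The windows of 4 suppressed members, chosen as those with the largest fold change that held a match, are printed 5′ to 3′ on the gene's strand, with the matches in capitals, from RefSeq on GRCm38.p6. All 4 lie on the minus strand, Ifi205 at chr1:174031706-174032005, Oas3 at chr5:120777610-120777909, Lgals9 at chr11:78984875-78985174 and Oas1a at chr5:120907476-120907775.
Ifi205: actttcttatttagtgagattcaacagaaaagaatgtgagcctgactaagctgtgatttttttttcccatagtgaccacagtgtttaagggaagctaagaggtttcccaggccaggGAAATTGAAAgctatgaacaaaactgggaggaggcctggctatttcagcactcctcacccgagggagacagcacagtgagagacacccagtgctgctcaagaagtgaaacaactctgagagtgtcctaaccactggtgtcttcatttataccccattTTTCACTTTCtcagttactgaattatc
Oas3: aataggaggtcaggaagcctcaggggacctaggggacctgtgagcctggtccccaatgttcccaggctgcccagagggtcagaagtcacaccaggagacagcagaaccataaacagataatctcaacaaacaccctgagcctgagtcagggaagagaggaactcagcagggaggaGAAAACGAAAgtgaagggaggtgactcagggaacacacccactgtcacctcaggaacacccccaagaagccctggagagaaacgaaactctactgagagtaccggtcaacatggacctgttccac
Lgals9: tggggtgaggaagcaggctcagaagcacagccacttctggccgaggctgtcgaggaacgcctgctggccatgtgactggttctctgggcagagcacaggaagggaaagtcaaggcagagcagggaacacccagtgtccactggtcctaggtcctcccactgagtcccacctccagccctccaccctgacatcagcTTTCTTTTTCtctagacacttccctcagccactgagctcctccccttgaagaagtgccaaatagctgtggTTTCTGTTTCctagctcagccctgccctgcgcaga
Oas1a: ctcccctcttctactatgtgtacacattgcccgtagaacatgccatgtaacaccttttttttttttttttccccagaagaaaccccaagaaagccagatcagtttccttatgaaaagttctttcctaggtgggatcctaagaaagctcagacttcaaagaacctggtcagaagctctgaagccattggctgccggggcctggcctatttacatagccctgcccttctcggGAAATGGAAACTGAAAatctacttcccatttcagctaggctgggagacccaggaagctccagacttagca
The first match starts 134 bases before the gene start in Ifi205, 75 in Oas3, 55 in Lgals9 and 20 in Oas1a, where 2 matches overlap.

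Genes of MHC class I presentation followed the interferon-stimulated genes in sign, with 1 higher and 9 lower of 32 and a median of -0.42 (1 to 6 fell without single samples, 1 without MC38-COSMC KO 2). Nlrc5, the transactivator of class I genes, had 319, 327 and 420 against 166, 122 and 121 (-1.38, SE 0.16, adjusted p = 0.00313). The immunoproteasome subunits Psmb9 and Psmb10 fell by 1.51 and 0.50, the peptide-trimming enzyme Erap1 had 803, 936 and 978 against 602, 543 and 512 (-0.71, SE 0.097, adjusted p = 0.00544), and Tapbpl, which edits the bound peptides, had 194, 237 and 268 against 140, 121 and 113. Calr, an endoplasmic reticulum chaperone that also serves other proteins, was the exception that rose, by 0.20. Against MC38-WT (0.581% of all genes), 0 of 31 passed by limma and 0 had an unadjusted p under 0.05. Against MC38-MOCK#2 (10.9% of all genes), 1 of 32 rose and 2 fell (median -0.18). Of 21 tested ligands of immune checkpoints and NK receptors, 0 passed by limma (median -0.36). In that list 5 had an unadjusted p under 0.05, all lower, beside 5770 of all 22172 genes.

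Chemokines and cytokines were split, with 7 higher and 3 lower of 39 (median 0; 4 to 7 rose and 0 to 3 fell without single samples). Ccl7, a chemoattractant of monocytes, had 12, 11 and 21 against 168, 176 and 160 (3.48, SE 0.25, adjusted p = 0.000747), and its neighbour Ccl2 had 474, 420 and 918 against 1559, 1668 and 1780 (1.55, SE 0.27, adjusted p = 0.0126). The neutrophil chemoattractant Cxcl1 had 155, 89 and 149 against 321, 437 and 457 (1.65, SE 0.24, adjusted p = 0.00653). Il1rl1, the receptor of IL-33, had 869, 799 and 920 against 3341, 3876 and 4543 (2.17, SE 0.11, adjusted p = 0.000207), above MC38-WT at 1779 to 2264. Mif, Kitl and Cxcl5 rose by 0.83, 1.04 and 2.15, and apart from Ptn the suppressed members were Il7 and Cx3cl1, by 1.48 and 1.32. Summed myeloid markers were at 300 to 320 in MC38-MOCK#1 and 370 to 437 in MC38-COSMC KO, most of it Cd14 and Cd68, with Adgre1 and Itgax at 0.

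Among 34 genes of necroptosis, pyroptosis and apoptosis, 1 rose and 7 fell (median -0.057; 2 to 5 fell without single samples). The inflammatory caspase Casp1 had 92, 111 and 266 against 38, 21 and 29 (-2.25, SE 0.41, adjusted p = 0.0159), Casp4 fell by 1.82, and the pore-forming Gsdme had 305, 339 and 258 against 77, 66 and 71 (-2.05, SE 0.13, adjusted p = 0.000536). The receptors Tnfrsf10b and Tnfrsf1a and the mitochondrial effector Bak1 fell by 0.65, 0.37 and 0.22. The single increased member was Eda2r, a p53-induced receptor of the TNF family, at 16, 22 and 13 against 172, 167 and 130 (3.15, SE 0.23, adjusted p = 0.000762).

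Of 35 MAGE, XLR and other X-linked germ cell genes, 9 rose and 2 fell (median 0.46, or 0.20 with genes at 0 in a line set to their bound and 6 under the floor in both lines left out; 5 to 9 rose without single samples). Magea10 had 1, 0 and 0 against 112, 125 and 90, and Pnma5 had 79, 107 and 161 against 1025, 936 and 873 (3.08, SE 0.23, adjusted p = 0.000804). Magea5 was at 0 in MC38-MOCK#1 and at 85, 36 and 35 in MC38-COSMC KO, at least 17.3-fold higher against the floor. Xlr4a, Xlr4b and Xlr4c rose, whereas the homeobox gene Rhox10 (47, 44 and 52 against 12, 11 and 20) and Xlr3b fell. MAGE and XLR genes are multigene families with near-identical members, so counts of single members are uncertain.

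The remaining lists concern growth and metabolism. Of 50 cell cycle genes, 6 rose and 2 fell (median 0.035), a balance that turned to 5 higher and 8 lower (median -0.022) when the libraries were set to the same total. The kinase gene Cdk4 had 3430, 3309 and 2936 against 5413, 5499 and 5709 (0.78, SE 0.067, adjusted p = 0.00111), and 3 inhibitors of cyclin-dependent kinases rose with it, Cdkn1c by 2.77, Cdkn2c by 0.44 and Cdkn1b by 0.38. Of 28 p53 targets, 4 rose and 2 fell (median 0.14), led by Eda2r and Ddit4l (14, 29 and 37 against 294, 199 and 175). Of 37 genes of endoplasmic reticulum stress and the amino acid response, 8 rose and 2 fell (median 0.014). Among them Ddit3 (CHOP) had 266, 258 and 216 against 431, 521 and 728 (1.15, SE 0.19, adjusted p = 0.0105), and the cystine transporter Slc7a11 had 561, 726 and 997 against 1977, 1601 and 1273. Of 33 genes of cholesterol and fatty acid synthesis, 5 rose and 1 fell (median 0.11), with Lss, Sqle, Cyp51, Srebf2 and Elovl6 higher by 0.33 to 0.58. Without single samples 0 to 7 of this list passed. Of 33 genes of glycolysis and the hypoxia response, 4 rose and 7 fell (median -0.16). Hif1a, the oxygen-regulated factor, had 2113, 2153 and 2146 against 1601, 1561 and 1495 (-0.46, SE 0.05, adjusted p = 0.00233), and Pfkp, a glycolytic kinase, had 2349, 2259 and 2567 against 1711, 1672 and 1551. The hexokinase family member Hkdc1 rose from 8, 4 and 2 to 75, 56 and 58. Of 61 nuclear genes of the respiratory chain, 4 rose and 1 fell (median -0.015), a share of 8.2% beside the 11.6% of all genes, and with the same total 3 rose and 7 fell. Without single samples, 3 to 6 cell cycle genes, 2 to 7 p53 targets, 3 to 11 stress genes, 4 to 10 glycolysis and hypoxia genes and 1 to 8 respiratory chain genes passed.

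A fixed rule required at most 3 normalised counts in every library of a line and at least 20 in every library of the other. By it, 23 genes were near 0 in MC38-MOCK#1 and higher in MC38-COSMC KO, and 1 gene was the reverse. Values of up to 3 count as near 0, so some of these genes still had reads in the lower line. Of the 23, 19 were protein coding and 5 were on the X chromosome, beside 1221 and 57 of all 1367 increased genes. The X chromosome held 945 of the 22172 tested genes. In 13 of the 23 all MC38-WT libraries also reached 20, whereas MC38-DKO, which also carries the COSMC knockout, had at most 5 for each of the 23. The most abundant of them, besides Sorcs2, Colec12, Six3os1 and Magea10, were Gm48358, at 0 in MC38-MOCK#1 and 126, 115 and 108 in MC38-COSMC KO (at least 38.8-fold higher against the floor), and Mrgprf, an orphan receptor, at 2, 0 and 0 against 86, 79 and 103. The following genes were picked after their values were seen. Lmo1, a transcriptional cofactor, was at 0 in MC38-MOCK#1 and at 40, 35 and 39 in MC38-COSMC KO (at least 12.7-fold higher against the floor), and the 18 other libraries had at most 8. The homeobox gene Nkx6-3 had 0, 1 and 1 against 63, 51 and 77, above the other lines, which reached 40. Prelid3a, Arhgdig, Arsj, Pid1, Hdx and Paqr7 belonged to the same group. The reverse gene was Nutm1, a germ cell gene, with 66, 61 and 93 in MC38-MOCK#1, 0, 2 and 0 in MC38-COSMC KO, and at most 8 in the other lines.

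Among the most abundant called transcripts, the glycolytic enzyme gene Pkm had 42698, 43007 and 42555 normalised counts against 51473, 48367 and 49519 (0.22, SE 0.047, adjusted p = 0.0274), a call that was lost when the libraries were set to the same total. Huwe1, Tpt1, Hnrnpf, Hdgf, Caprin1 and Prdx1 were the most abundant genes that fell, by 0.20 to 0.34. The other highly abundant increased features were annotated as nuclear pseudogenes, copies of mitochondrial genes. Counts per gene do not separate reads of mitochondrial RNA from reads of such copies, and the origin of these reads was not tested. All 37 mitochondrial genes of the table were at 0 in all 24 libraries, while 9 such copies, 95.9% to 100% identical to the mitochondrial gene, were among the abundant features, and all 9 rose by 0.47 to 0.89. Gm10925, identical to mt-Atp6, had 28260, 25221 and 24509 against 48934, 48614 and 46725 (0.89, SE 0.065, adjusted p = 0.000747). The 9 copies together took 1.12% to 1.31% of the total in MC38-MOCK#1, 1.90% to 1.93% in MC38-COSMC KO and 0.197% to 1.98% in the other lines. The calls of Gm10925, Gm29216, Gm13340, Gm28661 and Gm28437 were lost in a fit over all 8 lines. The remaining copies were not followed in that fit.

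Called genes were not spread evenly over the chromosomes. On chromosome 10, 256 of 1088 genes (23.5%) rose and 15 (1.38%) fell, and on chromosome 15, 129 of 688 (18.8%) rose and 22 (3.2%) fell. On chromosome 2 the balance was the opposite, with 39 of 1738 (2.24%) higher and 184 (10.6%) lower. Over genes with a mean of at least 10 normalised counts, the median log2 fold change was 0.32 on chromosome 10, 0.20 on chromosome 15, -0.16 on chromosome 2, -0.17 on chromosome 18, -0.15 on chromosome 12 and -0.12 on chromosome 13. On chromosome 10 it was above 0 in each 10 Mb stretch that held at least 20 such genes, from 0.15 to 0.47, so the shift ran along the chromosome. The level of chromosome 10 genes, as the median deviation from the mean over all 24 libraries, was 0.22, 0.19 and 0.20 in MC38-COSMC KO and -0.12, -0.12 and -0.10 in MC38-MOCK#1. No library of another line reached the knockout values, the highest being 0.15 in MC38-FUT4. On chromosome 15 the levels were -0.18, -0.14 and -0.10 in MC38-MOCK#1 and 0.08, 0.07 and 0.09 in MC38-COSMC KO. MC38-DKO, which also carries the COSMC knockout, lay with MC38-MOCK#1 on both, at -0.17, -0.12 and -0.14 on chromosome 10 and -0.17, -0.12 and -0.15 on chromosome 15.

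Many genes described above lie on these chromosomes. Timp3, Col6a1, Col6a2, Sgk1, Phlda1, Dusp6, Mif, Kitl, Cdk4, Ddit3, Ddit4, Hkdc1 and Lss are on chromosome 10, and Lgals1, Matn2, Sdc2, Trib1, Myc, Nr4a1, Sqle and Srebf2 are on chromosome 15. When every library was centred chromosome by chromosome on the median gene, an alternative chosen after seeing the data, 2166 genes passed (1123 higher, 1043 lower), of which 1850 had passed before. The centring itself evens the higher and lower calls within a chromosome, so the 76 increased and 81 suppressed genes of chromosome 10 in that fit are no result. The interferon-stimulated list had 25 suppressed members in that fit and the immediate early list 14 increased ones.

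**Figure D4:**
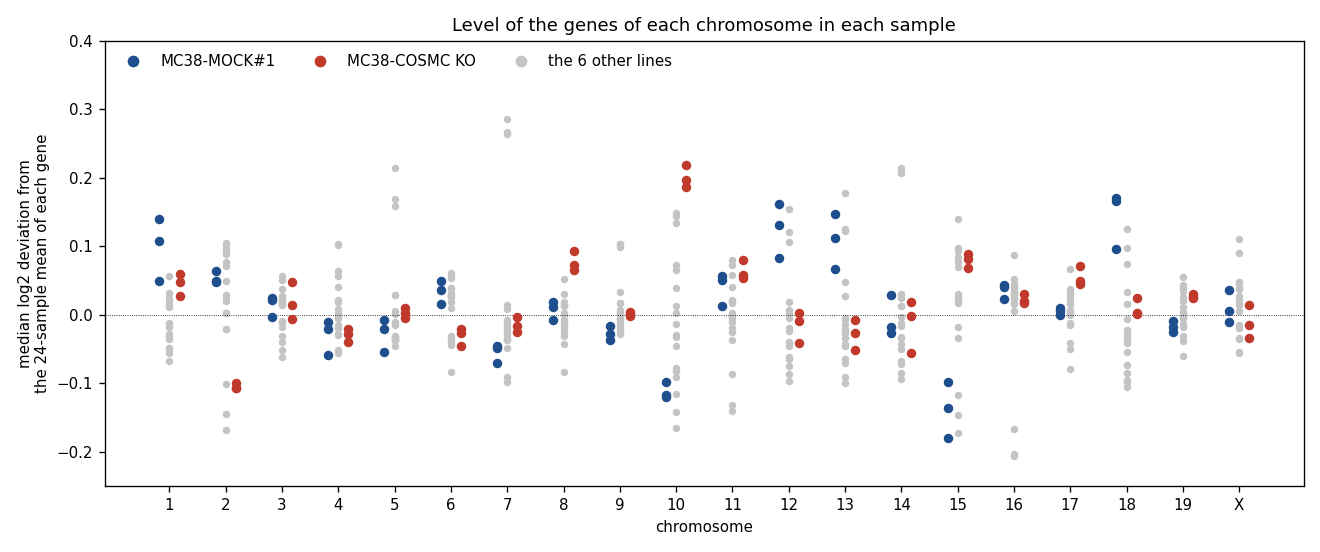
Median log2 deviation of the genes of each chromosome (mean of at least 10 normalised counts) from their mean over all 24 libraries, for each library; points are libraries, with the other 6 lines in grey. On chromosome 10 the 3 MC38-COSMC KO libraries (0.19 to 0.22) lie above all others and the 3 MC38-MOCK#1 libraries near -0.12 to -0.10.

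Runs of neighbouring genes that moved together were also seen. They were picked after their values were known and carry no test of their own. On chromosome 1, from Pde6d to Sh3bp4 (chr1:86542994-89155068, GRCm38), 9 of 15 genes that averaged 10 or more normalised counts fell and 2 rose, with a median of -1.11. Eif4e2, a cap-binding translational repressor, had 2566, 3313 and 4061 against 1459, 1550 and 1482 (-1.12, SE 0.15, adjusted p = 0.0049), and its partner Gigyf2 had 2713, 3339 and 4508 against 1466, 1461 and 1583 (-1.20, SE 0.17, adjusted p = 0.00572). Sh3bp4 had 1122, 1462 and 1586 against 421, 415 and 437 (-1.69, SE 0.12, adjusted p = 0.000748). MC38-MOCK#1 stood apart here: the level of the run was 0.67, 1.07 and 1.23 in its libraries, -0.11 to 0.02 in MC38-COSMC KO and at most 0.32 in the other lines.

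On chromosome 14, from Ero1l to Naa30 (chr14:45283092-49191031), 22 of 30 genes rose and 0 fell, with a median of 0.56. Lgals3 lies in this run and had the largest increase in it. Its neighbours Mapk1ip1l (1690, 1727 and 1754 against 3332, 3407 and 3714; 1.01, SE 0.057, adjusted p = 0.000322) and Samd4 (407, 380 and 362 against 975, 985 and 1062; 1.39, SE 0.072, adjusted p = 0.000207) rose as well. The level of the run was -0.42, -0.44 and -0.51 in MC38-MOCK#1 and 0.22, 0.18 and 0.23 in MC38-COSMC KO, with MC38-WT at 0.08 to 0.22, MC38-DKO at -0.54 to -0.37 and MC38-FUT9 at 0.55 to 0.66. A further run, on chromosome 17, from Cebpz to Ston1 (chr17:78919006-88662586), had 26 of 46 genes higher and 1 lower, with a median of 0.37.

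**Figure D5:**
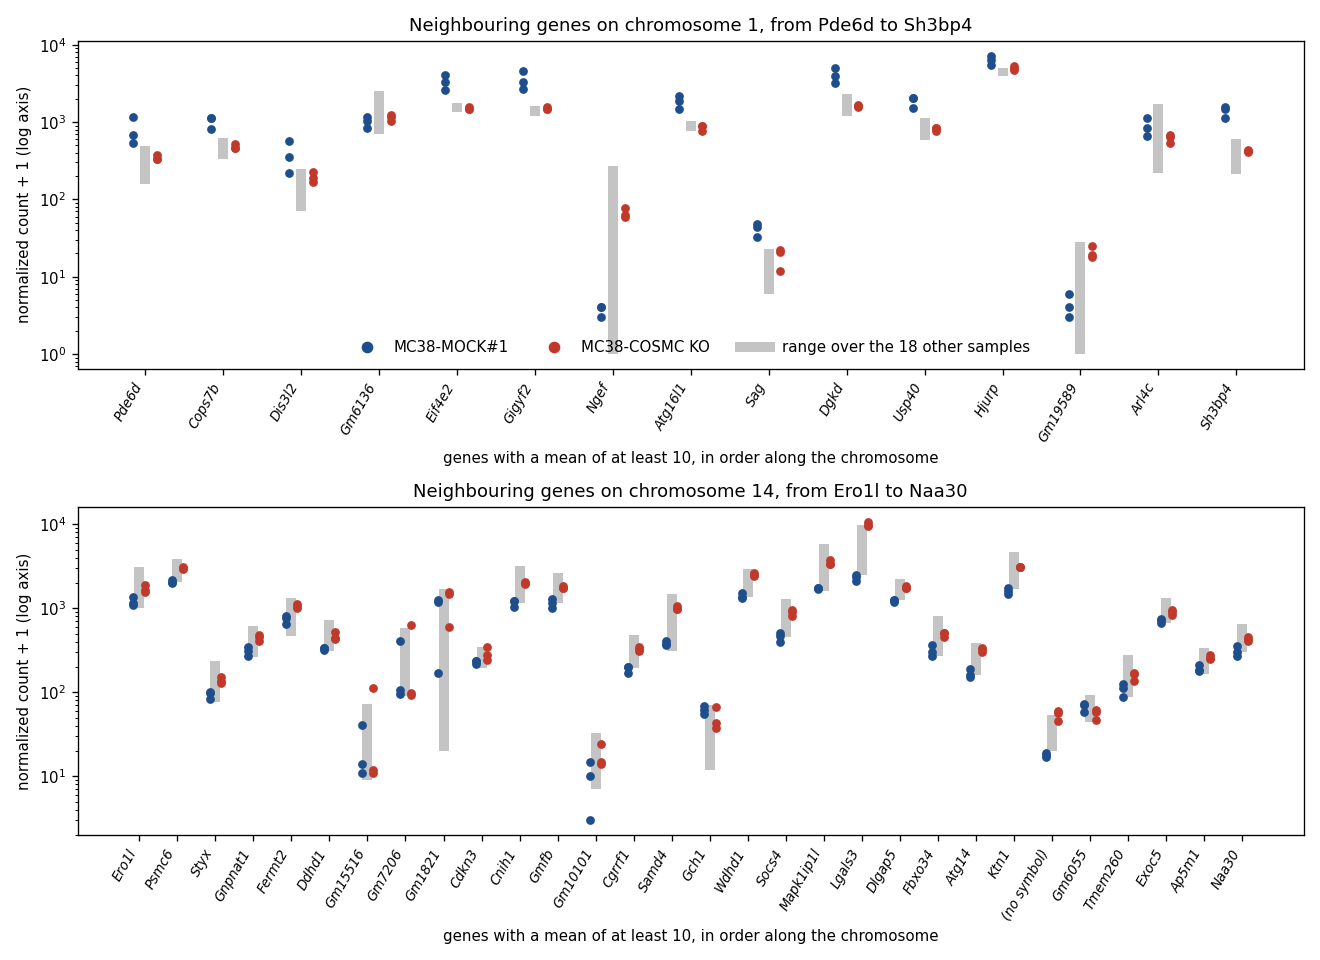
Normalised count + 1 (log axis) of the genes of the chromosome 1 run and of the chromosome 14 run (mean of at least 10), in order along the chromosome, in each MC38-MOCK#1 and MC38-COSMC KO library; each point is a library and the grey bar spans the 18 others. In the chromosome 1 run the MC38-MOCK#1 points lie above for Eif4e2, Gigyf2, Dgkd and Sh3bp4, and in the chromosome 14 run the MC38-COSMC KO points lie above, most at Lgals3 (9563 to 10744 against 2138 to 2472).

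The position of the other 18 libraries was used to describe which line stood apart for each of the 2563 genes. The median of the other 6 lines lay nearer to MC38-COSMC KO for 1664 genes (64.9%) and nearer to MC38-MOCK#1 for 896 (35.0%), against 52.5% and 43.0% over all tested genes. MC38-COSMC KO was outside the range of all 18 libraries for 127 of the genes (97 higher, 30 lower), against 205 of all 22172 tested genes. On chromosome 10 lay 50 of the 97 higher genes, as did 256 of all 1367 increased genes. MC38-MOCK#1 was outside that range for 159, against 254 of all tested genes. Of the 159, 88 were suppressed in the knockout, 25 of them on chromosome 1, which held 77 of all 1196 suppressed genes. With the 6 other lines pooled as a reference in the fit, 1691 genes (7.63%; 4.76% higher, 2.86% lower) differed from them in MC38-COSMC KO and 3666 (16.5%; 9.15% higher, 7.39% lower) in MC38-MOCK#1. Against MC38-WT alone, 127 of 21843 genes (0.581%) passed in MC38-COSMC KO, 50 higher (0.229%) and 77 lower (0.353%). MC38-WT harvests differed widely for some genes, and large differences could then fail to pass. Cmpk2, at 34 to 289 in MC38-WT, had a log2 fold change of -2.64 against that line (limma adjusted p = 0.153). A low count of calls is thus no measure of likeness between the 2 lines. In the comparison with MC38-WT, 2 of 55 matrix glycoproteins rose and 5 fell, and 1 of 52 matrix proteases and inhibitors rose and 1 fell. Of 29 mesenchymal genes 1 rose and 1 fell, and 0 of 30 epithelial genes passed by limma, with 4 at an unadjusted p under 0.05. These comparisons share the MC38-COSMC KO libraries with the main comparison, so their values are given side by side and not as independent evidence.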

How the data were processed

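Poly(A) RNA was sequenced from 3 harvests of each of 8 MC38 lines with a stranded library kit. Per the labels, the submitters' processing notes name HISAT2 2.0.4, SAMtools 0.1.19, featureCounts of Subread 1.5.0-p3, edgeR 3.18.1 and GRCm38, and whether counting used strand is not given in the sources used here. The values the authors deposited are a score in the sense of a normalised count per gene, scaled by the authors with edgeR's TMM method and rounded to whole numbers, so tests for raw counts were not applied. Groups came from the sample titles. Genes with at most 4 values of 0 among the 6 libraries were kept, log2(value + 1) was computed, and MC38-COSMC KO was compared with MC38-MOCK#1 in limma 3.58.1 (R 4.3.3; eBayes with a mean-variance trend) with Benjamini-Hochberg adjustment over all 22172 genes and a threshold of 0.05. On simulated data with 200 genes changed by 1.5-, 2- or 4-fold, 80, 135 and 185 were called, each with the right sign. In the same runs 1, 2 and 8 unchanged genes were called. The changed genes were drawn above a minimum mean, so these shares do not cover genes with a few counts. Each gene was simulated on its own, with changes of random sign. The shares therefore do not cover shifts of whole chromosomes or of gene lists between harvests, as seen in these data. Genes named included the 15 largest changes in each direction among called genes with a mean of at least 100 in the higher line. Their libraries also had to be without overlap between the lines, and clone names and pseudogenes were excluded. Others were the 6 most abundant called genes of each direction, the target genes and up to 6 called members per list and direction. Up to 6 genes near 0 in 1 of the lines only were also named. Further called members were named after their values were seen, and some members counted in the lists are not reported here by name. The members and lists were chosen with earlier results of these data known. Mitochondrial copies were matched with blastn 2.17.0. Alternatives were another pseudocount or filter, other scalings, a fit over all lines, no trend, a replicate block and leaving out each library.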

Additional observations from a re-analysis of the deposited data

How the results depend on the processing

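The comparison of MC38-COSMC KO with MC38-MOCK#1 (2563 genes) kept a count within 1.5 times with a pseudocount of 5 (2548), a mean of at least 10 normalised counts (3008), no filter on low values (2484), the same total (2872), median-of-ratios scaling (2619), all 8 lines in 1 fit (2969) and chromosome medians removed (2166, an alternative chosen after seeing the data). It fell to 1135 (624 higher, 511 lower) without a mean-variance trend and to 828 (409 higher, 419 lower) above an absolute log2 fold change of 1. Without single samples it was 667 to 2119, with 411 to 1149 higher and 256 to 970 lower. With fewer samples per fit, such counts drop by construction.

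MC38-COSMC KO and MC38-MOCK#1 share the replicate numbers 1 to 3, which stand for passages 4, 5 and 6 in both. Same-numbered samples did not deviate together (r -0.069, 0.029 and -0.084, and 1 of 3 correlated best with its own number). With the number as a replicate block, 4 genes passed (4 higher, 0 lower: Timp3, Col6a3, Lgals3 and Prrx1), with 4669 at an unadjusted p under 0.05. The block leaves fewer degrees of freedom for the spread, which by itself lowers such counts. Against MC38-WT the 127 genes became 110 with the same total, 92 without a trend and 0 with the replicate block, and against MC38-MOCK#2 the 2392 became 2491, 1248 and 0. The C1galt1c1 fold change was -0.73 with the replicate block, where its call was lost, and -0.82 to -0.62 without single samples, with the call lost without MC38-COSMC KO 1 or any MC38-MOCK#1 sample. No value changed sign among called results. Of 258 named genes, 34 lost the call in the fit over all lines, 28 with chromosome medians removed, 119 without a trend, 11 with the same total and 68 to 150 without single samples. The medians of 12 of 25 lists changed sign under some alternative, all but the O-glycan core and GALNT list (-0.19, and 0.03 without MC38-MOCK#1 2) within 0.15 of 0. Rounding to whole normalised counts limits genes with values of a few counts, and 3 harvests of 1 line per group limit every comparison.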
